A study of Mus musculus with 8 samples.

Results

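Nucleic acid sensing and interferon induction were described here through 9 genes, Tlr3, Tlr7, Tlr9, Aim2, Mavs, Ticam1, Myd88, Tbk1 and Irf3, in mouse liver with and without hepatocyte Hmgb1. The genes were chosen by symbol as upstream sensors, adaptors and effectors of the interferon response, and all 9 were found among the 19939 genes tested. Each was read by 1 probe set assigned to it alone, so no choice between probe sets arose. RNA of mouse livers was hybridised to 8 Affymetrix arrays, and n counts arrays throughout. In deleted livers (n = 4) Hmgb1, which encodes a DNA-binding protein of chromatin, was deleted with a Cre recombinase driven by the albumin promoter, which is active in hepatocytes. The controls were livers of mice with floxed Hmgb1 alleles (n = 4), whose titles name no Cre, so the effects of Cre and of losing Hmgb1 cannot be told apart. All mice were male littermates of 8 weeks from a C57Bl/6 background after 5 backcrosses, with the floxed alleles common to both groups, and the albumin promoter leaves Hmgb1 in place in other liver cells. The characteristics name Balb/c and liver stellate cells in place of the whole liver on a C57Bl/6 background given by the protocol. The protocol's strain and tissue are used here, and the labels leave the strain unsettled. Alb, which encodes albumin, had log2 intensities of 13.26 to 14.03 in deleted and 13.95 to 14.01 in control livers, near the highest value of each array (13.58 to 14.46).

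In textbook terms, cells detect foreign or misplaced nucleic acids with receptors that differ in place and ligand. Toll-like receptors read RNA and DNA in endosomes, RIG-I-like helicases read RNA in the cytosol, and AIM2 and cGAS read cytosolic DNA. Most of these routes meet, through the adaptors TRIF, MAVS or STING, at the kinase TBK1 and the transcription factor IRF3, which switch on type I interferon, whereas AIM2 builds an inflammasome and MyD88 couples Toll-like receptors to NF-kB and IRF7. In liver, macrophages, dendritic cells and endothelial cells hold many of these receptors, and HMGB1 itself is known as a nucleic acid-binding protein.

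Hmgb1 was compared first as a check of the labels. Its log2 intensities were 4.91, 4.20, 4.53 and 4.74 in deleted and 5.35, 5.42, 5.45 and 5.78 in floxed control livers. The probe set lay below the median of every array (6.08 to 6.22 over all probe sets), so its fold change may be understated. How much Hmgb1 RNA remained is not read from it. The groups did not overlap, and Hmgb1 fell by 0.91 on the log2 scale (SE 0.14, limma adjusted p = 0.0216), a call lost without deleted 3 (adjusted p = 0.073), deleted 4 (0.0687), control 3 (0.0561) or control 4 (0.0797). Floxed control 1 stood apart from the other arrays. It had the lowest array weight (0.254, against 0.592 to 2.58 elsewhere) and lay at −26.6 on the first principal component, against −11.4 to 11.7 for deleted and 6.33 to 9.89 for the other control arrays. Whether every array stands for its own mouse is not stated, and p-values then describe only the variation among these 8 arrays.

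None of the 9 genes passed an adjusted p of 0.05 (0 of 9, limma), where 0.692% of all genes tested did. At an unadjusted p under 0.05 only Irf3 passed, 1 of 9 beside 9.46% of all genes. The groups did not overlap for 1 gene, again Irf3, which is 11.1% of the 9 beside 5.57% of all genes, a count of 1 gene from which nothing is read about the set. Mean log2 fold changes (deleted minus control) were above 0 for 5 genes, below 0 for 3 and equal for Tlr9. Their median was 0.020, against 0 over all genes. The 95% intervals of all 9 lay within 1.5-fold in either direction, as did those of 97.2% of all genes, and the outermost bound was 1.34-fold, for Mavs.

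**Figure D1:**
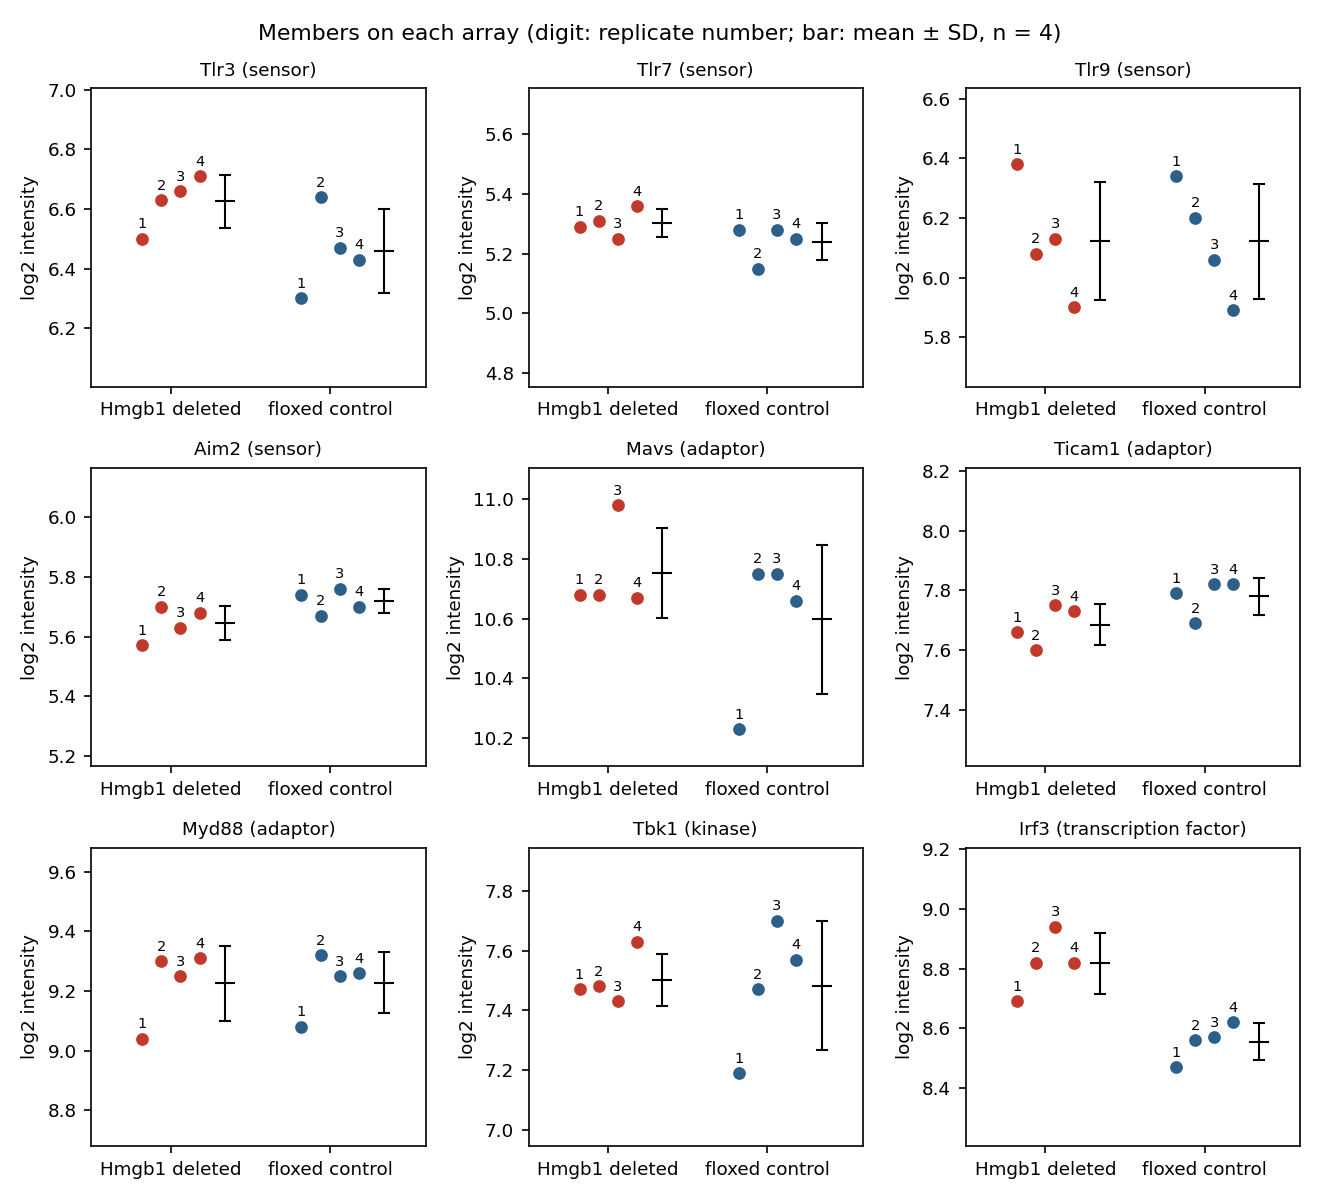
Log2 intensity of each of the 9 genes (y axis, 1 log2 unit high in every panel) in Hmgb1 deleted (left) and floxed control livers (right). Points are single arrays with their replicate number and bars the mean ± SD (n = 4). Irf3 is the 1 gene whose groups do not overlap, and floxed control 1 is the lowest of the 8 arrays for Tlr3, Mavs, Tbk1 and Irf3.

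The sensors were taken first. Tlr3, the endosomal receptor for double-stranded RNA, had log2 intensities of 6.50, 6.63, 6.66 and 6.71 in deleted livers, against 6.30, 6.64, 6.47 and 6.43 in controls. Control 2 lay within the deleted range, so the groups overlapped by this array. The log2 fold change was 0.165 (SE 0.081; 95% interval −0.013 to 0.34, limma adjusted p = 0.598), and it was 0.112 without control 1 and 0.225 without control 2.

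Tlr7, the endosomal receptor for single-stranded RNA, had 5.29, 5.31, 5.25 and 5.36 in deleted and 5.28, 5.15, 5.28 and 5.25 in control livers. All values lay within about the same narrow band, and the log2 fold change was 0.063 (95% interval −0.067 to 0.19, limma adjusted p = 0.918), and 0.0325 without control 2. Tlr9, the endosomal receptor for unmethylated CpG DNA, had 6.38, 6.08, 6.13 and 5.90 in deleted and 6.34, 6.20, 6.06 and 5.89 in control livers. Both groups had the same mean, 6.12 ± 0.20 in deleted and 6.12 ± 0.19 in control livers (SD, n = 4 each), and in both the array numbered 1 was highest and the array numbered 4 lowest. Its spread was larger than that of Tlr7 (SD 0.046 and 0.062), so its interval was wider, from −0.25 to 0.25. Without single arrays its log2 fold change ran from −0.086 (without deleted 1) to 0.074 (without deleted 4).

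Aim2, the cytosolic DNA receptor that recruits ASC, had 5.57, 5.70, 5.63 and 5.68 in deleted livers, against 5.74, 5.67, 5.76 and 5.70 in controls. The groups overlapped, and the log2 fold change was −0.073 (95% interval −0.20 to 0.055, limma adjusted p = 0.869), and −0.0475 without deleted 1. The probe sets of Tlr7 and Aim2 lay below the median of every array (6.08 to 6.22 over all probe sets), and that of Tlr9 lay below it on 5 of 8 arrays. No detection call was used here, so a dim probe set may carry little of its gene's signal, and its fold change is then understated.

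The cell types in which Tlr7, Tlr9 and Aim2 are mostly known were compared as lists of markers. For the counts below, 9.46% of all genes had an unadjusted p under 0.05 (limma), and 0.692% passed the threshold. Of 11 dendritic cell markers, plasmacytoid ones included, 7 were higher and 4 lower in deleted livers, with 0 past the threshold (limma; 0 also at an unadjusted p under 0.05) and a list mean of 6.19 to 6.26 on deleted and 6.20 to 6.36 on control arrays. Of 7 B cell markers 5 were higher and 2 lower with 0 past the threshold (limma; 0 unadjusted), at list means of 5.61 to 5.69 and 5.53 to 5.69. Of 14 macrophage markers 9 were higher and 5 lower with 0 past the threshold (limma; 3 unadjusted, all lower), at 8.55 to 8.69 in deleted and 8.60 to 8.73 in control livers. All 9 measured T and NK cell markers stayed short of the threshold (limma, 0 unadjusted), at 5.30 to 5.52 in deleted and 5.41 to 5.55 in control livers. The list means of B cell and of T and NK cell markers lay below every array median (6.08 to 6.22). Those of dendritic cell markers lay near it. Differences in these cells may therefore be understated. Sinusoidal endothelial markers differed more, with 10 of 10 lower, 7 of them at an unadjusted p under 0.05, and list means of 8.859 to 8.999 on deleted and 9.103 to 9.269 on control arrays. The 1 that passed was Clec4g, a lectin of these cells, which fell by 0.62 (limma adjusted p = 0.00629). With the mean of its probe sets the call was lost (adjusted p = 0.121) and the log2 fold change was −0.265. Of 10 hepatocyte markers 9 were lower, with 0 past the threshold (limma; 2 unadjusted, both lower), at list means of 12.51 to 12.92 on deleted and 12.87 to 12.92 on control arrays. Deleted 4 was the lowest of the 8 arrays for all 10, and the median of this list was −0.16, and −0.0533 without deleted 4. Of 13 stellate cell markers 4 were higher and 9 lower, with 0 past the threshold (limma). At an unadjusted p under 0.05 (limma) there were 3 of them, 1 higher and 2 lower. Their list means were 7.86 to 7.98 in deleted and 7.85 to 8.01 in control livers. In whole liver, fewer cells of a type and less RNA per cell cannot be told apart, and the part of endothelial cells and hepatocytes in the values of the sensors was not tested.

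The adaptors followed. Mavs, the mitochondrial adaptor of RIG-I and MDA5, had log2 intensities of 10.68, 10.68, 10.98 and 10.67 in deleted livers, against 10.23, 10.75, 10.75 and 10.66 in controls. Deleted 3 was far above the other deleted arrays, and control 1 far below the other controls, while the remaining 6 arrays lay between 10.66 and 10.75 with no order by group. The mean difference of 0.155 on the log2 scale (SE 0.12, limma adjusted p = 0.858) rested on these arrays: it was 0.0325 without control 1 and 0.0792 without deleted 3.

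Ticam1 encodes TRIF, the adaptor of Tlr3. It had 7.66, 7.60, 7.75 and 7.73 in deleted and 7.79, 7.69, 7.82 and 7.82 in control livers, and only control 2 lay within the deleted range. The log2 fold change was −0.095 (SE 0.062, 95% interval −0.23 to 0.041, limma adjusted p = 0.779). Tlr3 and its adaptor Ticam1 thus had fold changes of opposite sign, neither of them past the threshold.

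Myd88, the adaptor of Tlr7 and Tlr9, had 9.04, 9.30, 9.25 and 9.31 in deleted and 9.08, 9.32, 9.25 and 9.26 in control livers. The array numbered 1 was the lowest of each group, and the other 3 of each group lay within 9.25 to 9.32. Its log2 fold change was −0.0025 (95% interval −0.18 to 0.17, limma adjusted p = 0.996), and its sign turned with arrays centred on their medians (0.0175) and quantile-normalized again (0.0034).

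Tbk1, the kinase that phosphorylates Irf3, had 7.47, 7.48, 7.43 and 7.63 in deleted and 7.19, 7.47, 7.70 and 7.57 in control livers. Controls were spread on both sides of the deleted arrays (SD 0.088 in deleted and 0.22 in control livers). Deleted minus control, the log2 fold change was 0.020 (95% interval −0.20 to 0.24, limma adjusted p = 0.993), and −0.0775 without control 1.

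Irf3, the transcription factor that TBK1 activates to induce interferon beta, had log2 intensities of 8.69, 8.82, 8.94 and 8.82 in deleted livers, against 8.47, 8.56, 8.57 and 8.62 in controls. Every deleted array lay above every control array, by at least the gap between 8.69 in deleted 1 and 8.62 in control 4. The means were 8.82 ± 0.10 in deleted and 8.56 ± 0.062 in control livers (SD, n = 4 each). The log2 fold change was 0.26 (SE 0.068, 95% interval 0.11 to 0.41), which is 1.20-fold, with an unadjusted p of 0.00277 and a limma adjusted p of 0.145. In order of p Irf3 stood at place 380 of the 19939 genes. Over the 17 alternatives its adjusted p ran from 0.0456 to 0.332 and passed in 1, with array weights, where the log2 fold change was 0.24. The fold change itself kept to 0.22 to 0.305 and was 0.23 without control 1.

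**Figure D2:**
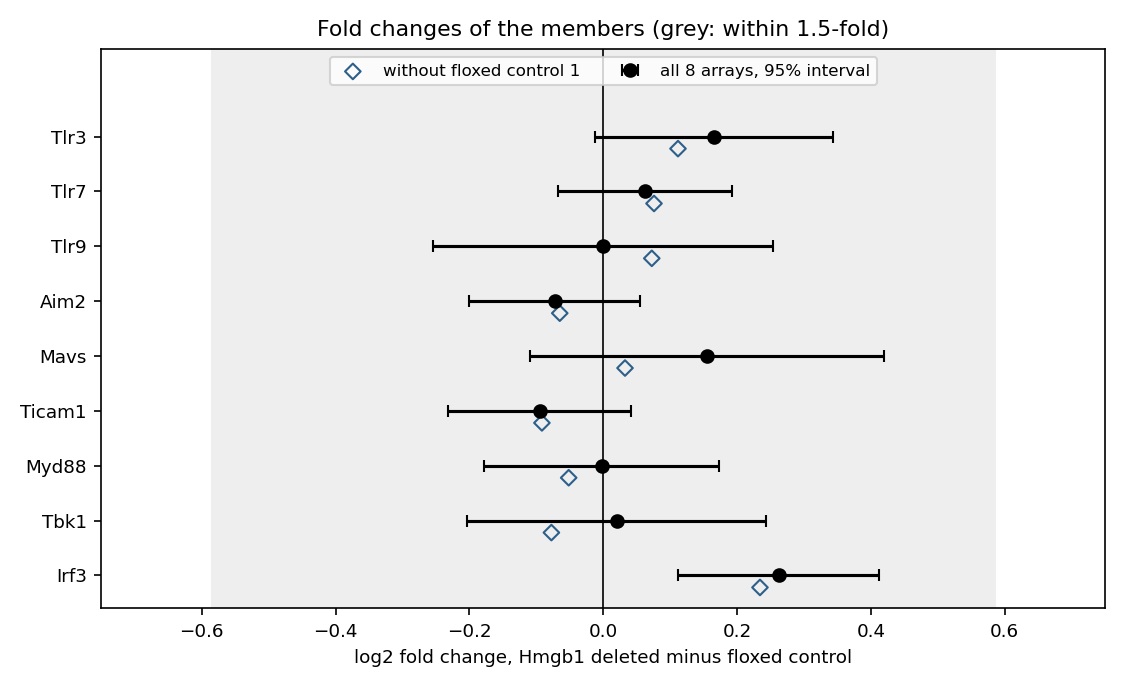
Log2 fold change, Hmgb1 deleted minus floxed control (x axis), of the 9 genes (y axis, by role), with 95% intervals of the moderated fit over 8 arrays. Open diamonds give the value without floxed control 1, and the grey band marks 1.5-fold in either direction. Every interval lies within the band, that of Irf3 alone lies wholly above 0, and Mavs moves most without control 1.

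Promoter windows from RefSeq (GRCm38.p6, 250 bases before to 50 after a gene's start) were at hand for 8 of the 9 genes. They were searched on both strands for GAAA, any 2 bases and GAAA, the interferon-stimulated response element (ISRE) that IRFs bind, and for TTCNNNGAA, a STAT site. Of the 8 genes, 1 held the first and 1 the second, in each case Myd88, where over all genes with a window 3.99% held an ISRE and 9.55% a STAT match in any window. Shown are Irf3, the gene with groups that did not overlap, Myd88, the gene with matches, and, for comparison, Ifit1 and Bst2, interferon-induced genes that rose past the threshold and were picked because their windows hold matches. Of the 5 interferon-stimulated genes past the threshold 4 had a window, 3 of them with an ISRE match (Rsad2 is the other) and Cmpk2 with none, and of the 21 measured 14 had a window and 8 a match. Of the 116 other pathway genes described below, 94 had a window and 12 an ISRE match, Ddx58 and Stat2 among them. Capitals mark matches to either motif.
Irf3 (chr7:44997398-44997697, plus strand): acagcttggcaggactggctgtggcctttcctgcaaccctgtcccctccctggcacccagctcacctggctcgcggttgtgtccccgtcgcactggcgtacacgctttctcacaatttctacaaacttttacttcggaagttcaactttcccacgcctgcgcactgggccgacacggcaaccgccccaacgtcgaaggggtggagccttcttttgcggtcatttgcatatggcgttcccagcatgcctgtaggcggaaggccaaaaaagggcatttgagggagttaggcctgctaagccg
Myd88 (chr9:119339969-119340268, minus strand): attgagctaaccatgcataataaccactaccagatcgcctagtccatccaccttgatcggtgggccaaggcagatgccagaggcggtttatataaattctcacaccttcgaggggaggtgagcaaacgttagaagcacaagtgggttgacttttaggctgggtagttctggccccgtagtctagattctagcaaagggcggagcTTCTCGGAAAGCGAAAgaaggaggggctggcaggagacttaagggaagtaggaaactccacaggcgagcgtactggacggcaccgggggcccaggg
Ifit1 (chr19:34640639-34640938, plus strand): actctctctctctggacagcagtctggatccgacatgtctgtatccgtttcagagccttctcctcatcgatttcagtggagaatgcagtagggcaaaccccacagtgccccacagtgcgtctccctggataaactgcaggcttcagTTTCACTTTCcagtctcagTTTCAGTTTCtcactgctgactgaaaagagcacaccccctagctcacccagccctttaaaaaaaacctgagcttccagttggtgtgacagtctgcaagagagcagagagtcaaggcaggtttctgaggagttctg
Bst2 (chr8:71537423-71537722, minus strand): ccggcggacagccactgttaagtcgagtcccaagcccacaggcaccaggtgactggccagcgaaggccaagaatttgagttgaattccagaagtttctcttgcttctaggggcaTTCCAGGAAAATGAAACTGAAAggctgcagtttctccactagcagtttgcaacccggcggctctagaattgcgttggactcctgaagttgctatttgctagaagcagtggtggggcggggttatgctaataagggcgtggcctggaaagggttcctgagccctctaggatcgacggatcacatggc
The Myd88 window held GAAAGCGAAA from 40 bases before the start, overlapping the STAT match TTCTCGGAA from 46 bases before it. Bst2 had a like arrangement, the STAT match TTCCAGGAA running into GAAAATGAAA and GAAACTGAAA, which overlap each other. Ifit1 held TTTCACTTTC and TTTCAGTTTC, both matches on the opposite strand, 104 and 85 bases before its start. The Irf3 window held neither motif. A match is a match of letters in this window and says nothing of binding.

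The rest of the pathway was described from lists of 116 other measured genes. None of them passed an adjusted p of 0.05 (0 of 116, limma). At an unadjusted p under 0.05 there were 21, or 18.1%, beside 9.46% of all genes, and the groups did not overlap for 12, or 10.3%, beside 5.57% of all genes. The lists were not cleared of genes that interferon itself induces, such as Irf7 and Usp18, which is also on the list of interferon-stimulated genes. The part of such genes in these shares was not tested. Whether interferon lay behind the higher means of Ddx58, Zbp1, Ifih1, Ddx60, Dhx58, Adar, Irf9 and Stat2, given below, was not tested either. Of the 116 genes 72 were higher and 44 lower in deleted livers, with a median log2 fold change of 0.043 (0.0246 without deleted 3) against 0 over all genes. Fold changes were thus small at the middle of the lists, while the shares above were higher than those over all genes, a difference that was not tested.

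Of 22 other sensors, 16 were higher and 6 lower, with a median of 0.079 (0.0475 without deleted 4), and 5 had an unadjusted p under 0.05, all higher (0 adjusted, limma). Ddx58, which encodes the RNA helicase RIG-I, had 9.30, 9.32, 9.60 and 9.53 in deleted and 8.64, 8.95, 9.12 and 9.02 in control livers. The groups did not overlap. At 0.505 on the log2 scale (SE 0.11; limma adjusted p = 0.0803), the gene missed the threshold here and passed it in 4 of the alternatives. Zbp1, a sensor of Z-form nucleic acids, had 8.22, 7.86, 8.68 and 8.37 in deleted and 7.61, 7.68, 7.96 and 7.75 in control livers, overlapping through deleted 2 and control 3 (0.53, SE 0.15, limma adjusted p = 0.181). The following sensors were picked for their role after values were seen. Ifih1, the RNA helicase MDA5, had a log2 fold change of 0.22 (limma adjusted p = 0.527), which was 0.1375 without control 1. Ddx60 and Dhx58, from the same list, had 0.385 and 0.395 (limma adjusted p = 0.276 and 0.534). Cgas, the cytosolic DNA sensor, had 0.018 (95% interval −0.12 to 0.15), on a dim probe set below the median of every array. Sting1, the adaptor of Cgas, had 0.013 (95% interval −0.11 to 0.13). Sting1 values lay between 6.33 and 6.42 in deleted and 6.34 and 6.37 in control livers, so the 2 groups were nearly the same on this probe set.

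Among 26 other adaptors and kinases 16 were higher and 10 lower (median 0.048, and 0.0146 without control 1; 5 with an unadjusted p under 0.05, 0 adjusted, limma). Rnf135, the ubiquitin ligase Riplet that acts on RIG-I, had 7.23, 7.64, 7.37 and 7.33 in deleted and 7.01, 7.10, 6.98 and 7.06 in control livers (log2 fold change 0.355, SE 0.085, limma adjusted p = 0.114). Tab2, which links TRAF6 to the kinase TAK1, had 10.03, 10.22, 10.03 and 10.12 in deleted and 10.30, 10.33, 10.25 and 10.49 in control livers (−0.24, SE 0.073, limma adjusted p = 0.225). For both genes the groups did not overlap, in opposite directions. Ikbke, the kinase closest to Tbk1 in function, was picked for that role after values were seen. It had 8.40 to 8.57 in deleted and 7.96 to 8.33 in control livers (0.26, limma adjusted p = 0.30). The 26 genes include Tram1, which is not the adaptor TRAM, encoded by Ticam2 on the same list. Tram1 was kept in these counts.

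Of 9 other transcription factors 5 were higher and 4 lower, with a median of 0.045 that turned to −0.0175 without control 1 (2 with an unadjusted p under 0.05, 0 adjusted, limma). Irf7, which is induced by interferon and amplifies it, had 9.17, 8.97, 10.04 and 9.48 in deleted and 8.63, 8.65, 9.02 and 8.87 in control livers. Deleted 2 lay below control 3, and the log2 fold change was 0.62 (SE 0.19, limma adjusted p = 0.248). Irf5, which acts below MyD88, had 7.81, 7.98, 7.89 and 8.00 in deleted and 7.32, 7.78, 7.79 and 7.75 in control livers. Its groups did not overlap, but control 1 lay far below the others, and the log2 fold change of 0.26 (limma adjusted p = 0.436) was 0.147 without it.

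The 13 genes of endosomal Toll-like receptor processing were higher for 6 and lower for 7 (median −0.060, and −0.0142 without deleted 4; 1 with an unadjusted p under 0.05, 0 adjusted, limma). Ctsl, a cathepsin that can cleave Tlr9, had 11.92, 11.96, 11.87 and 11.68 in deleted and 12.03, 12.07, 12.05 and 12.13 in control livers, all deleted arrays below all controls (log2 fold change −0.21, SE 0.071, limma adjusted p = 0.298). Unc93b1, the chaperone that carries Tlr3, Tlr7 and Tlr9 to endosomes, had 8.24, 8.35, 8.50 and 8.39 in deleted and 8.34, 8.54, 8.56 and 8.59 in control livers, with overlap (−0.14, limma adjusted p = 0.703).

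Nucleases and inhibitors numbered 28, of which 18 were higher and 10 lower (median 0.029, and 0.060 without deleted 1; 7 with an unadjusted p under 0.05, 0 adjusted, limma). Adar, which edits double-stranded RNA and so keeps it from MDA5, had 7.93, 7.84, 8.18 and 8.15 in deleted and 7.55, 7.62, 7.67 and 7.72 in control livers. The groups did not overlap (log2 fold change 0.385, SE 0.085, limma adjusted p = 0.0832). Usp18, an interferon-induced brake on the interferon receptor that is also on the list of interferon-stimulated genes, had 10.05, 9.28, 10.69 and 9.99 in deleted and 8.66, 9.02, 9.57 and 9.32 in control livers. The groups overlapped through deleted 2, and the log2 fold change of 0.86 was large but widely spread (SE 0.27, limma adjusted p = 0.239). Dnase1l3 is named because it is also on the list of sinusoidal endothelial markers and counts in both. Its log2 fold change was −0.225 (limma, unadjusted p = 0.0198, adjusted p = 0.356).

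Interferons, their receptors and their signalling genes were higher for 11 and lower for 7 of 18 (median 0.044, and 0.020 without control 3; 1 with an unadjusted p under 0.05, 0 adjusted, limma). Ifnb1, the interferon beta gene and the main target of Irf3, was picked for this role after values were seen. It had 4.87 to 5.11 in deleted and 4.80 to 5.23 in control livers (log2 fold change 0.013, 95% interval −0.19 to 0.22), on a dim probe set. Ifna2 and Ifna4, likewise picked, had log2 fold changes of 0.0875 and 0.080 (limma adjusted p of 0.928 and 0.957). On 3 probe sets shared by Ifna1 and other genes, the log2 fold changes were −0.0075, 0.0050 and 0.063 (limma adjusted p of 0.994, 0.995 and 0.902). These last were adjusted over all probe sets that carry a symbol. Irf9, a DNA-binding factor of type I interferon signalling, had 9.12, 9.06, 9.43 and 9.13 in deleted and 8.64, 8.79, 9.12 and 8.95 in control livers (0.31, limma adjusted p = 0.344). Stat2, its partner, had 9.50, 9.13, 9.78 and 9.59 in deleted and 8.90, 9.38, 9.34 and 9.22 in control livers (0.29, limma adjusted p = 0.587, and 0.187 without control 1).

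Of 21 measured interferon-stimulated genes, the readout at the end of the pathway, 5 rose past the threshold (limma), beside 0.296% of all genes. Rsad2 rose by 0.81 (adjusted p = 0.00457), Trim14 by 0.74 (0.00533), Cmpk2 by 0.745 (0.0125), Ifit1 by 1.09 (0.0130) and Bst2 by 0.65 (0.0280). Their median over the 21 genes was 0.595, and that of the 9 upstream genes 0.020, a pair of descriptions whose difference was not tested. Within the deleted livers the array numbered 3 was the highest for 12 of the 14 named pathway and interferon-stimulated genes with a fold change above 0, and also for Mavs, Ticam1 and Irf3. Within the controls the array numbered 1 was the lowest for 11 of those 14, and for 5 of the 9 upstream genes.

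**Figure D3:**
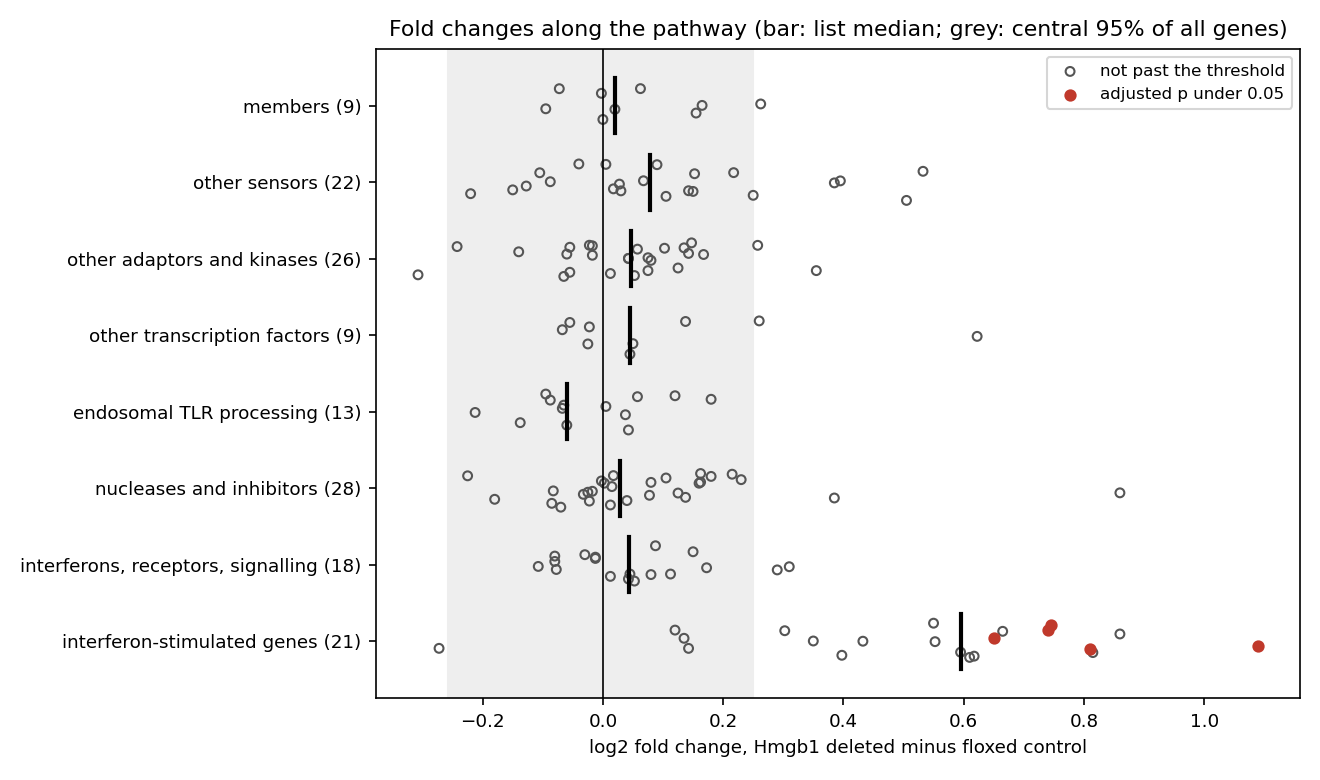
Log2 fold change, Hmgb1 deleted minus floxed control (x axis), of the 9 genes and of each list of the pathway and of interferon-stimulated genes (y axis, number measured in brackets). Circles are genes, filled where the adjusted p was under 0.05, bars are list medians and the grey band holds the central 95% of all genes (−0.26 to 0.25). Of the lists drawn, which leave out the cell type markers, that of interferon-stimulated genes holds the filled circles, and Irf3 lies just past the edge of the band.

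**Figure D4:**
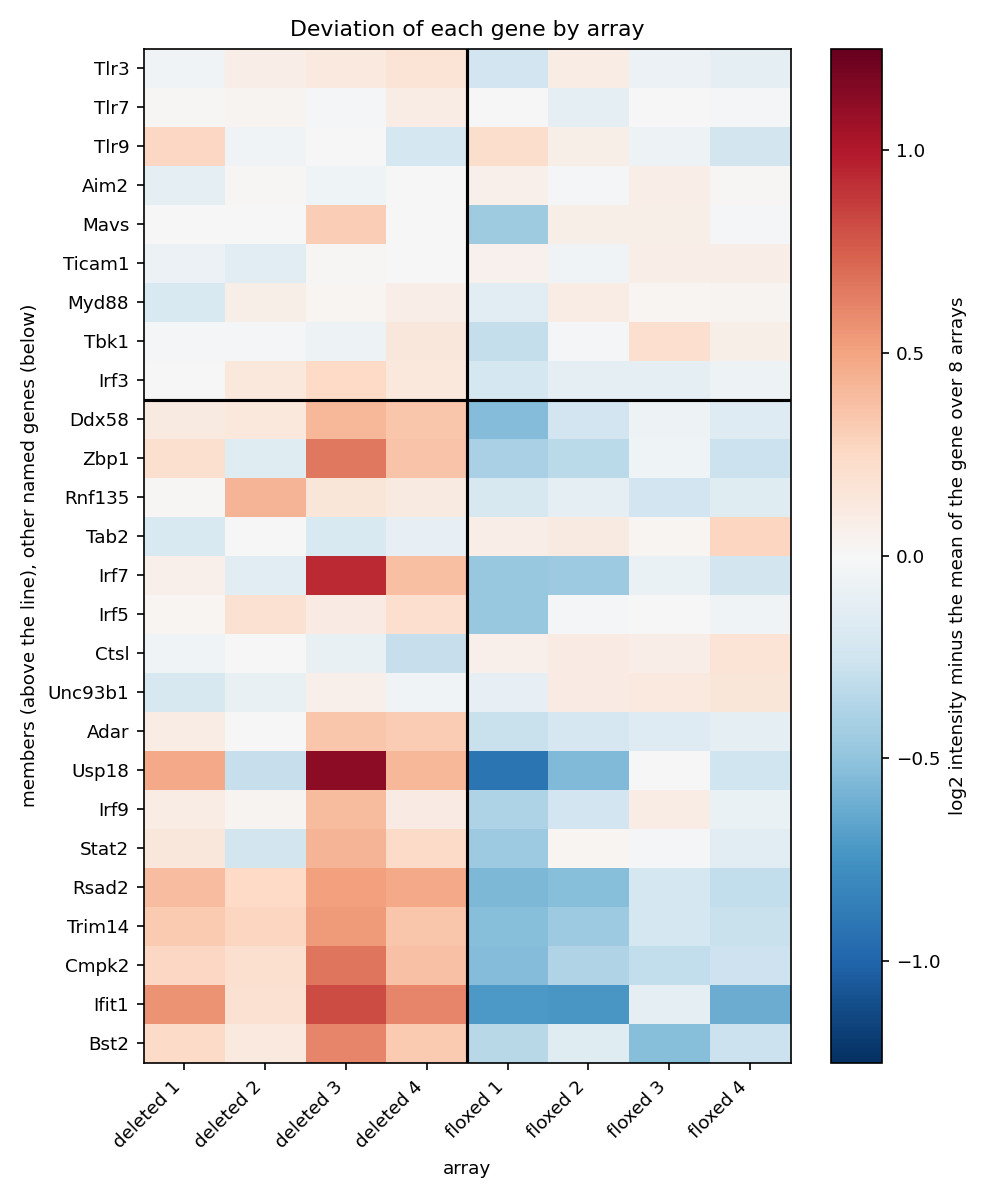
Log2 intensity minus the mean of the gene over the 8 arrays (colour) for each array (x axis, deleted left of floxed control) and gene (y axis, the 9 genes above the line, other named genes below). Red is above and blue below the mean of the gene. The 9 genes are pale on most arrays, and the interferon-stimulated genes at the foot are red on deleted and blue on control arrays.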

How the data were processed

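The deposited table holds log2 intensities of 35556 probe sets on 8 arrays, made by the authors with RMA, per the submitters' processing notes; for its version and for the genome build nothing is given in the sources used here. Per the labels' protocols, 150 ng of column-purified RNA was amplified and labelled with biotin. The log2 scale was read from the range of the values.

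GEO's platform annotation gave 1 symbol to 21789 probe sets, several to 1621 and none to 12146. Each of 19939 genes was read by its single-symbol probe set with the highest mean over the 8 arrays, dim ones included. Deleted and control arrays were compared in a 2-sided limma fit without covariates (limma 3.58.1, lmFit and eBayes, under R 4.3.3), with Benjamini-Hochberg adjustment over all genes and a threshold of 0.05. Figures were drawn with matplotlib 3.10.9 in Python 3.11.15. The script was tested on simulated data. The 9 genes and the lists were chosen with earlier results of these data known. Besides the 9 genes and Hmgb1, the text names, from each list of pathway and interferon-stimulated genes, those past the threshold or else the 2 with the smallest p, and says where it names others. Marker lists are given as counts and mean levels, with Clec4g named as the 1 marker past the threshold and Alb as a check of the tissue. Of 25 interferon-stimulated genes 3 were read only by probe sets with several symbols. Arrays give no read depth, and their number limits precision. Alternatives covered a filter on dim genes, probe set choice, 2 scalings, variance models, weights for arrays, a block for the replicate number and each array left out.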

Additional observations from a re-analysis of the deposited data

Results flagged for a closer look

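In each group of 4 arrays, the gap between the highest or lowest array and its nearest neighbour was set against the range of the group, in 54 groups of the genes named. Among the 54 groups 2 values were singled out, where chance gives about 1 in 20, or 2.7. Mavs had 10.98 on deleted 3, against 10.67 to 10.68 on the other deleted arrays. Irf5 had 7.32 on floxed control 1, against 7.75 to 7.79 on the other controls.

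Among the probe sets shared by several genes, which the gene comparison does not use, that of Igtp, an interferon-induced GTPase, was higher in deleted livers. Its log2 fold change was 0.89 (SE 0.16, limma adjusted p = 0.0353, adjusted over all probe sets that carry a symbol). The means were 9.54 ± 0.29 in deleted and 8.65 ± 0.28 in control livers (SD, n = 4 each), and no array of either group lay within the range of the other. The probe set carries 2 gene symbols, so its signal cannot be given to 1 gene. Isg15 and Gbp2, the other interferon-stimulated genes read only by shared probe sets, stayed short of the threshold. Their log2 fold changes were 0.20 and 0.335 (limma adjusted p = 0.754 and 0.235, over the same probe sets). No explanation was tested for these values.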

How the results depend on the processing

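Over 17 alternatives, 124 of 134 values of the 8 genes other than Tlr9 kept their direction and their side of the threshold. Tlr9, with equal means, had no direction to keep and took both signs (−0.0858 to 0.0742), short of the threshold throughout. The number of the 9 past the threshold was 0 except with array weights, where it was 1 (Irf3). Leaving out single arrays it stayed at 0. The median of the 9 was 0.020 and became 0.0875 with the filter on dim genes, which removed Tlr7, Tlr9 and Aim2; leaving out single arrays it ran from 0.0275 to 0.0758. The number with groups that did not overlap ran from 1 to 3 when single arrays were left out, with Tlr7 added without deleted 3 (22.2% of the 9, beside 7.96% of all genes under the same omission) and Tlr3 and Ticam1 added without control 2 (33.3%, beside 7.47%). Myd88 changed sign to 0.0034 (quantile normalization again), 0.0175 (arrays centred), 0.059 (without deleted 1), 0.028 (without control 2), 0.0050 (without control 3) and 0.0083 (without control 4), and Tbk1 to −0.065 (array weights), −0.023 (without deleted 4) and −0.078 (without control 1); the cause was not tested. Leaving out single arrays, Myd88 ran from −0.052 to 0.059 and Tbk1 from −0.078 to 0.093. Other pathway genes past the threshold numbered 0, but 2 after quantile normalization again (Ddx58, Adar), 3 with array weights (these and Rnf135) and 0 to 1 without single arrays, the 1 being Ddx58 without control 1. Over all genes 138 passed, against 264 after quantile normalization again, 61 with arrays centred, 526 with array weights and 37 (without deleted 4) to 321 (without control 1) with single arrays left out. Of the 5 interferon-stimulated genes, Rsad2 and Trim14 passed in all alternatives, Cmpk2 failed without deleted 4 (adjusted p = 0.0536), Ifit1 without deleted 4 (0.0677) or control 4 (0.0581), and Bst2 in 5 of them (up to 0.103).

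With the replicate block, the number in the sample title, 6 other pathway genes passed (Ddx58, Zbp1, Rnf135, Irf7, Adar and Usp18), 325 over all genes and 0 of the 9, with Irf3 at an adjusted p of 0.0792. The labels do not say that the numbers pair mice, so the block was kept as an alternative. Deviations of same-numbered arrays from their group means correlated at 0.447, 0.0652, −0.0814 and 0.422 over genes. Arrays numbered 1 and 4 correlated best with their own number, and those numbered 2 and 3 did not. With 4 arrays per group, these correlations cannot settle whether the numbers stand for pairs.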
